A study of Mus musculus with 18 samples.

Results

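Enzymes that cut nucleotides and receptors that sense them were followed in mouse macrophages (BMDM), which had been differentiated from bone marrow with the growth factor M-CSF. The set held 9 of the 18668 gene rows in the deposited table. It comprised 6 ectonucleoside triphosphate diphosphohydrolase genes (Entpd1, Entpd4, Entpd4b, Entpd5, Entpd6 and Entpd7) and 3 receptor genes (P2rx4, P2rx7 and P2ry6), found by symbol. Entpd4 and Entpd4b were selected on their measured difference between genotypes, so that difference is described here and not tested. All 9 genes passed the filter of 0.1 RPKM in at least 3 libraries, as did 12838 genes in all.

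Marrow donors were Apoe-/- mice or mice that lacked Treml4 as well (Apoe-/-/Treml4-/-, called DKO), both of the background labelled C57BL6. Every group therefore carried the Apoe deletion, and the genotypes differed in Treml4, a receptor gene of myeloid cells. DKO mice came from a cross of Apoe-/- with Treml4-/- mice, and the animals' ages were not given in the sources used here. After 7 days of differentiation the cells received PBS (untreated) or oxidized low-density lipoprotein (oxLDL), the altered cholesterol carrier that fills plaque macrophages with lipid, at 10 or 60 µg/ml (oxLDL 10 and oxLDL 60) for 16 h. Each of the 6 groups had 3 biological replicates, which gave 18 libraries. Levels are in RPKM, reads scaled to gene length and to the reads of the library.

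Extracellular ATP is a danger signal. Macrophages release it through channels such as pannexin 1, detect it with P2X ion channels, and break it down at the surface with Entpd1, also called CD39, which turns ATP and ADP into AMP. The ecto-5'-nucleotidase Nt5e, or CD73, then makes adenosine, which acts on receptors of its own and dampens inflammatory responses. P2rx4 and P2rx7 encode ATP-gated cation channels, and opening of the P2X7 channel is a classic trigger of the NLRP3 inflammasome. P2ry6 encodes a G protein-coupled receptor for UDP. The products of Entpd4, Entpd5, Entpd6 and Entpd7 act mostly inside the cell, in the secretory pathway and related compartments. There Entpd5 hydrolyses UDP formed during quality control of glycoprotein folding.

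The coding sequence shows how closely the enzyme genes are related. The lines hold a stretch of 69 coding bases from the longest protein-coding transcript of each gene in GENCODE M21 (mouse genome GRCm38, which is mm10). The capitals mark 7 codons of the first apyrase conserved region, a motif of this enzyme family that takes part in nucleotide binding.

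Entpd1: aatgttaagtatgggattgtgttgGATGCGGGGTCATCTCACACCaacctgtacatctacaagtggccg

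Entpd5: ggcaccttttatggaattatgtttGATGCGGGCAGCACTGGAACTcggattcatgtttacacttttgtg

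Entpd6: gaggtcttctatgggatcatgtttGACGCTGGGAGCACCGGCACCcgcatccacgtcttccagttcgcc

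Entpd7: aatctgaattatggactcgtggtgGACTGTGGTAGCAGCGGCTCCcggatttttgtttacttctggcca

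Entpd4: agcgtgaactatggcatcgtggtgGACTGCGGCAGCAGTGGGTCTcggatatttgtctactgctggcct

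Entpd4b: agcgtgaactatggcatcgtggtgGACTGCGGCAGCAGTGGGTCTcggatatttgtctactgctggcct

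The stretch lay on the plus strand at chr19:40711282-40720516 for Entpd1, where it crossed from an exon into the next, at chr2:150753252-150753320 for Entpd6 and at chr19:43704248-43704316 for Entpd7. It lay on the minus strand at chr12:84396692-84396760 for Entpd5. For Entpd4 it lay at chr14:69350752-69350820 and for Entpd4b at chr14:69569002-69569070, both on the plus strand and each within an exon. Entpd4 and Entpd4b were the same in 69 of 69 bases. Entpd7 was the nearest of the others to that pair, with 54 of 69 bases in common, and Entpd5 and Entpd6 shared 45 of 69. Entpd1 shared between 33 and 39 bases with any other member.

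Entpd4 and Entpd4b were identical well beyond this stretch. The genes start 218250 bases apart on chromosome 14 (GRCm38, 69337174 to 69367270 for Entpd4 and 69555424 to 69585520 for Entpd4b). GENCODE M21 lists 6 transcripts of Entpd4 and 5 of Entpd4b, and 5 pairs of them matched letter for letter, including the pair of main coding transcripts of 3589 bases. All 8206 distinct windows of 50 bases in Entpd4 transcripts also occurred in Entpd4b transcripts, and the reverse held too. A read from these annotated exons therefore carries no letter that tells which gene it came from, and the separate values of the pair depend on how the counting divided such reads, which is not given in the sources used here.

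The receptor genes lie on chromosome 5 (P2rx7 at 122643911 to 122691432 and P2rx4 at 122707544 to 122729738, both on the plus strand) and chromosome 7 (P2ry6 at 100937630 to 100974649, minus strand).

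Treml4 lay between 1.86 and 8.39 RPKM in the 9 Apoe-/- libraries and at 0 in 8 of 9 DKO libraries, with 0.0116 RPKM in the other. Apoe was still read at 0.348 to 4.13 RPKM, which includes any transcript left by the targeted allele. Of 8 macrophage markers, Adgre1, Csf1r, Cd68 and Lyz2 were all above 339 RPKM in every library. Itgam ran from 80.2 to 125 RPKM, Cd14 from 91.6 to 421, Fcgr1 from 12.55 to 35.55 and Mertk from 2.20 to 6.71 RPKM. Of 8 neutrophil markers, S100a8 (9.22 to 28.4 RPKM) and S100a9 (12.6 to 39.9 RPKM) were read in every library, Mpo, Elane, Camp and Ltf lay between 0.578 and 2.98 RPKM, and Ly6g and Retnlg did not exceed 0.026 and 0.129 RPKM. Xist, a transcript of female cells, was present at 7.25 to 14.5 RPKM in 6 libraries, those of Apoe-/- replicate 2 and DKO replicate 3 at each treatment, and was at most 0.069 RPKM in the other 12. Depth was not stated per library. Steps in low RPKM values, with GENCODE lengths, gave roughly 36.4 to 49.6 M reads per library.

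The 9 genes covered a wide range of levels, and RPKM, being scaled to length, allow genes other than Entpd4 and Entpd4b to be compared. Over the 18 libraries P2ry6 had the highest mean (54.1 RPKM, range 40.3 to 69.9), followed by P2rx4 (35.8 RPKM, range 30.8 to 46.6). Only 8% of the genes tested had a higher mean level than P2ry6. P2ry6 was above P2rx4 in 17 of 18 libraries, although their ranges overlapped. A group of 3 genes followed, with means of 7.07 RPKM for Entpd5, 6.83 RPKM for P2rx7 and 6.05 RPKM for Entpd7, and their ranges overlapped. Entpd6 had a mean of 4.44 RPKM and Entpd1 had 3.68 RPKM. The table gave 4.44 RPKM for Entpd4b and 1.95 RPKM for Entpd4. These separate levels depend on how reads of identical sequence were divided, so the pair is not ranked. Summed, Entpd4 and Entpd4b had a mean of 6.39 RPKM (range 4.32 to 8.34).

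The remaining Entpd genes were close to the limit of detection. Entpd2, Entpd3 and Entpd8 did not exceed 0.116, 0.016 and 0.00962 RPKM, and Entpd8 was at 0 in 17 of 18 libraries. Among P2X receptors the other 5 genes (P2rx1, P2rx2, P2rx3, P2rx5 and P2rx6) stayed at or below 0.29 RPKM.

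**Figure D1:**
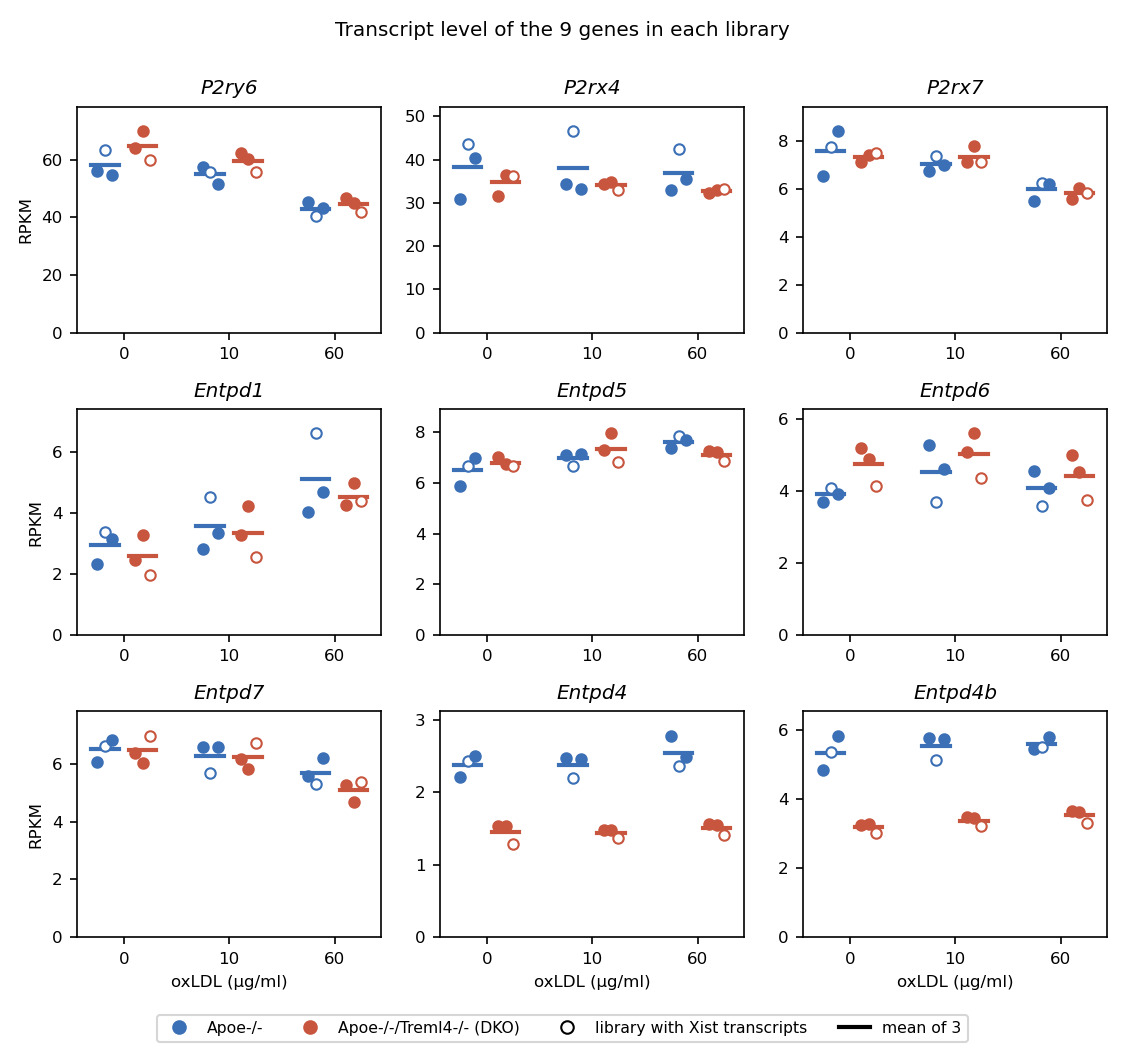
Transcript level (RPKM, linear axes from 0) of each of the 9 genes against oxLDL concentration (µg/ml), with 1 point per library, bars for the mean of 3, and open points for libraries with Xist transcripts. Entpd1 points were higher and P2ry6 points lower at 60 µg/ml than in untreated cells of both genotypes, and the DKO points of Entpd4 and Entpd4b lay below all Apoe-/- points at each concentration.

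The first question was how the genes answered oxLDL. At 60 µg/ml the surface enzyme gene Entpd1 rose in both genotypes, by 1.69-fold in Apoe-/- and 1.77-fold in DKO cells on the log2(RPKM + 0.1) scale, and the UDP receptor gene P2ry6 fell by 0.53 on the log2 scale in DKO cells. A change was called where limma's Benjamini-Hochberg adjusted p was under 0.05 and the fold was at least 1.4. In Apoe-/- cells 1 of 9 genes was called, against 13.9% of all genes tested, with 1 higher (7.13% of all genes) and 0 lower (6.78%). In DKO cells 2 of 9 were called, against 12.2% of all genes, with 1 higher (4.87%) and 1 lower (7.31%). The median log2 change over the 9 genes was 0.06 in Apoe-/- and -0.08 in DKO cells, beside 0.06 and -0.06 over all genes tested. The share of the 9 genes called was therefore near the background. Macrophage markers moved as well. Of 8 such markers 5 were called at oxLDL 60 in Apoe-/- and 4 in DKO cells, and their summed level, mostly Lyz2, went from 8932 to 11764 RPKM untreated to 6529 to 8483 RPKM in Apoe-/- cells and from 8383 to 10951 RPKM to 5560 to 7152 RPKM in DKO cells. Their part in the changes of the 9 genes was not tested.

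Entpd1 stood at 2.32, 3.37 and 3.14 RPKM in untreated Apoe-/- cells (replicates 1, 2 and 3), at 2.83, 4.52 and 3.33 RPKM at oxLDL 10 and at 4.02, 6.61 and 4.68 RPKM at oxLDL 60. In DKO cells it stood at 2.46, 3.28 and 1.97 RPKM untreated, at 3.28, 4.24 and 2.54 RPKM at oxLDL 10 and at 4.25, 4.97 and 4.40 RPKM at oxLDL 60. In both genotypes each oxLDL 60 library lay above each untreated library, and the oxLDL 10 libraries overlapped the untreated ones. The log2 change at oxLDL 60 was 0.76 (SE 0.22, adjusted p = 0.0162) in Apoe-/- cells and 0.82 (SE 0.22, adjusted p = 0.0117) in DKO cells. Within replicate numbers, which pair libraries inside a genotype, the ratio of oxLDL 60 to untreated ran from 1.49 to 1.96 in Apoe-/- and from 1.51 to 2.23 in DKO cells. All 6 pairs also had a ratio above 1 at oxLDL 10, from 1.06 to 1.34.

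The main fit and its refits without 1 library did not pair libraries by replicate number. Their SE and intervals for oxLDL changes therefore also hold the differences between replicate numbers. In these refits the call on Entpd1 was lost when any of 3 libraries was left out. Without untreated Apoe-/- replicate 1 the adjusted p in Apoe-/- cells was 0.0861, and without the oxLDL 60 library of Apoe-/- replicate 2, which has Xist transcripts, it was 0.092. Without untreated DKO replicate 3, the lowest Entpd1 value and also a library with Xist transcripts, it was 0.063 in DKO cells. With the replicate number as a block and all libraries kept, the numbers of genes called at oxLDL 60 against untreated were unchanged. They were 1 in Apoe-/- and 2 in DKO cells. The block was not combined with leaving out a library, so whether the paired call depends on 1 library was not tested. With that block the rise of Entpd1 was called from oxLDL 10 to oxLDL 60 in Apoe-/- cells as well, with a log2 change of 0.50 (SE 0.10, adjusted p = 0.00134).

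P2ry6 stood at 56.2, 63.3 and 54.9 RPKM in untreated Apoe-/- cells, at 57.3, 55.8 and 51.7 RPKM at oxLDL 10 and at 45.5, 40.3 and 43.2 RPKM at oxLDL 60. In DKO cells it stood at 64.0, 69.9 and 60.1 RPKM untreated, at 62.5, 60.4 and 55.7 RPKM at oxLDL 10 and at 46.7, 44.9 and 42.0 RPKM at oxLDL 60. Every oxLDL 60 library lay below every untreated and every oxLDL 10 library of its genotype. The log2 change from untreated was -0.43 (SE 0.07, adjusted p = 0.000269) in Apoe-/- cells, which missed the fold limit, and -0.53 (SE 0.07, adjusted p = 3.61e-05) in DKO cells, which passed it. These values sit near the fold limit on either side. After rescaling of libraries by their median ratio they were -0.49 and -0.47, and the call moved to Apoe-/- cells. Without untreated DKO replicate 2 the log2 change in DKO cells was -0.48, also short of the limit.

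**Figure D2:**
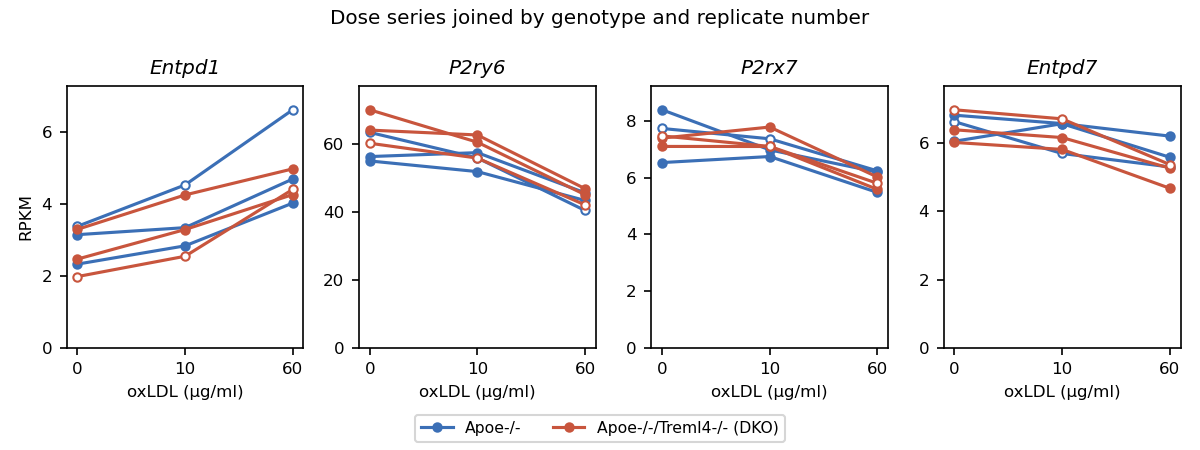
Levels (RPKM, linear axes from 0) of Entpd1, P2ry6, P2rx7 and Entpd7 against oxLDL concentration (µg/ml), with lines that join libraries of the same genotype and replicate number and open points for libraries with Xist transcripts. All 6 Entpd1 lines ended above their start and all 6 P2ry6 lines ended below theirs.

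P2rx7, the ATP-gated channel gene, was also lower at oxLDL 60. It lay at 6.53, 7.73 and 8.39 RPKM in untreated and at 5.48, 6.24 and 6.19 RPKM in oxLDL 60 Apoe-/- cells, and at 7.10, 7.39 and 7.47 RPKM against 5.58, 6.02 and 5.80 RPKM in DKO cells. The oxLDL 60 and untreated libraries did not overlap in either genotype. The log2 change was -0.33 in both genotypes (SE 0.08 in each, adjusted p = 0.00575 in Apoe-/- and 0.00656 in DKO cells), past the adjusted p but under the fold limit.

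Of the intracellular enzyme genes, Entpd7 and Entpd5 each passed the adjusted p in 1 genotype, under the fold limit. Entpd7 had a log2 change of -0.33 in DKO cells (SE 0.09, adjusted p = 0.00916) and -0.19 in Apoe-/- cells (SE 0.09, adjusted p = 0.12). It ranged from 6.03 to 6.99 RPKM in untreated and from 4.68 to 5.38 RPKM in oxLDL 60 DKO cells, with no overlap. Entpd5 had a log2 change of 0.23 in Apoe-/- cells (SE 0.07, adjusted p = 0.0209), from 5.89 to 6.97 RPKM untreated to 7.37 to 7.86 RPKM at oxLDL 60, and of 0.06 in DKO cells (SE 0.07, adjusted p = 0.574). Counted by adjusted p at any fold, 4 of 9 genes passed in Apoe-/- cells (30.2% of all genes) and 4 of 9 in DKO cells (25.9%).

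The other 4 genes passed no test against oxLDL, and the data bound how far they may have moved. P2rx4, a channel gene that is abundant in these cells, had a 95% interval of the log2 change from -0.32 to 0.23 in Apoe-/- and from -0.36 to 0.19 in DKO cells. Its levels ran from 30.8 to 46.6 RPKM in Apoe-/- libraries, where replicate 2, with Xist transcripts, was the highest at each treatment (43.7, 46.6 and 42.4 RPKM). Entpd6, a Golgi and secreted enzyme gene, had intervals from -0.23 to 0.34 and from -0.39 to 0.19. Entpd4 had intervals from -0.11 to 0.29 and from -0.14 to 0.25, and Entpd4b from -0.10 to 0.23 and from -0.02 to 0.31.

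**Figure D3:**
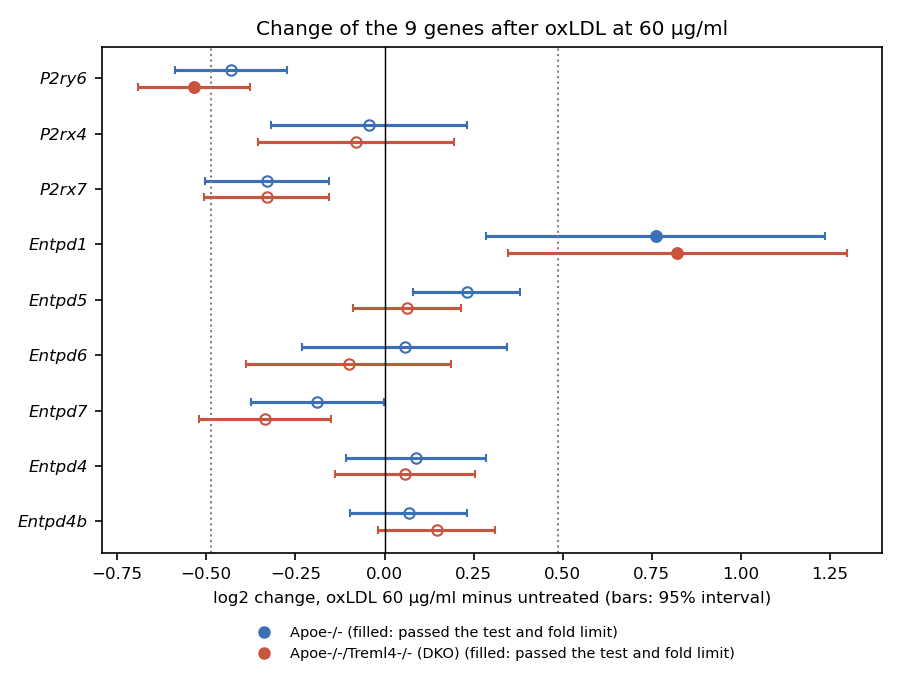
Log2 change of each of the 9 genes from untreated to oxLDL 60, with 95% intervals from limma, for both genotypes, with dotted lines at a fold of 1.4. Entpd1 in both genotypes and P2ry6 in DKO cells were called (filled points), and the other estimates lay within the dotted lines.

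At 10 µg/ml none of the 9 genes was called in either genotype by limma. The background was 2.79% of all genes in Apoe-/- and 2.26% in DKO cells. An unadjusted p under 0.05 was found for 0 of 9 in either genotype, beside 22.4% of all genes in Apoe-/- and 13.2% in DKO cells. The largest shift was that of Entpd1, with a log2 change of 0.26 in Apoe-/- cells (95% interval -0.22 to 0.73) and 0.37 in DKO cells (-0.11 to 0.84). From oxLDL 10 to oxLDL 60 again none was called (background 6.46% in Apoe-/- and 5.66% in DKO cells). An unadjusted p under 0.05 was found for 3 of 9 in each genotype, beside 25.5% of all genes in Apoe-/- and 28.8% in DKO cells. P2ry6 was past the adjusted p in this step in both genotypes, with log2 changes of -0.35 (adjusted p = 0.00369) and -0.42 (adjusted p = 0.00095).

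The second question was whether loss of Treml4 moved these genes. Entpd4 and Entpd4b were lower in DKO cells at every treatment. Entpd4 stood at 2.21, 2.43 and 2.49 RPKM in untreated Apoe-/- cells and at 1.53, 1.53 and 1.29 RPKM in untreated DKO cells. Entpd4b stood at 4.86, 5.36 and 5.85 RPKM in untreated Apoe-/- cells and at 3.25, 3.29 and 3.03 RPKM in untreated DKO cells. The lowest Apoe-/- value exceeded the highest DKO value for both genes. At oxLDL 10, Entpd4 ran from 2.20 to 2.47 RPKM in Apoe-/- and from 1.37 to 1.48 RPKM in DKO cells, and Entpd4b from 5.15 to 5.78 RPKM and from 3.21 to 3.47 RPKM. At oxLDL 60, Entpd4 ran from 2.36 to 2.78 RPKM in Apoe-/- and from 1.41 to 1.57 RPKM in DKO cells, and Entpd4b from 5.46 to 5.82 RPKM and from 3.31 to 3.67 RPKM. The genotypes did not overlap at these concentrations either.

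The log2 difference between DKO and Apoe-/- cells was -0.68 (SE 0.09), -0.68 (SE 0.09) and -0.71 (SE 0.09) for Entpd4 in untreated, oxLDL 10 and oxLDL 60 cells. For Entpd4b it was -0.73 (SE 0.08), -0.70 (SE 0.08) and -0.65 (SE 0.08). Because the pair was picked for this difference, no p-value is given, and these values describe the choice.

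The rows of the pair were close to proportional. The ratio of Entpd4b to Entpd4 lay between 2.344 and 2.346 in 13 of 18 libraries. In the other 5 (untreated replicates 1 and 2 of both genotypes, and oxLDL 60 replicate 1 of Apoe-/-) it lay between 1.96 and 2.21. Entpd4b made up 66.2% to 70.1% of the summed level in Apoe-/- and 67.9% to 70.1% in DKO libraries. The rows of Entpd4 and Entpd4b are therefore read here as nearly 1 measurement, and not as separate evidence. The summed level was 7.07, 7.79 and 8.34 RPKM in untreated Apoe-/- and 4.78, 4.81 and 4.32 RPKM in untreated DKO cells. The log2 difference of the sum was -0.72, -0.70 and -0.68 in untreated, oxLDL 10 and oxLDL 60 cells (SE 0.07 in each).

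**Figure D4:**
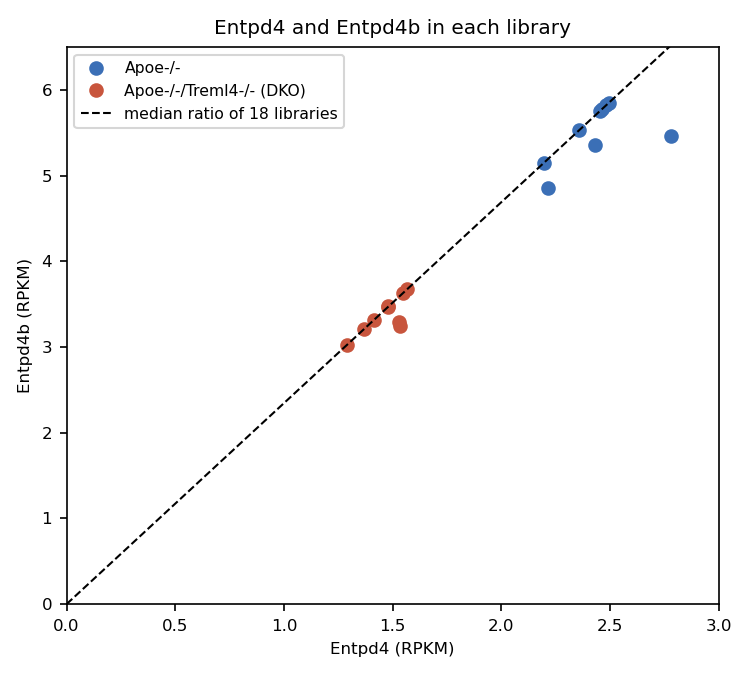
Level of Entpd4b against Entpd4 (RPKM) in each of the 18 libraries, with a dashed line at the median ratio. Of the libraries, 13 lay on the line, and all 9 DKO points lay at lower values of both genes than all 9 Apoe-/- points.

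None of the 6 nearest tested genes around the pair on chromosome 14 was called between genotypes at any treatment. Of all genes, 0.21%, 0.0857% and 0.125% were called in untreated, oxLDL 10 and oxLDL 60 cells, so 0 of 6 is near the background. Slc25a37, a mitochondrial iron importer gene located before Entpd4 (69241848 to 69285544), had a log2 difference of 0.02 in untreated cells (SE 0.09, adjusted p = 0.911), and Chmp7, after Entpd4b, had 0.15 (SE 0.09, adjusted p = 0.374). R3hcc1, between Loxl2 and Chmp7, had 0.44 (SE 0.12, adjusted p = 0.111), with higher values in every untreated DKO library. At oxLDL 10 R3hcc1 had 0.47 (SE 0.12, adjusted p = 0.283), again without overlap. At oxLDL 60 it had 0.15 (SE 0.12, adjusted p = 0.773), and the genotypes overlapped. Loxl2, the nearest tested gene after Entpd4b, was low and variable, with -0.67 (SE 0.84, adjusted p = 0.70), so that its data do not bound a change of the size seen for Entpd4. The remaining neighbours by the same rule, Dock5 and Gnrh1, had 0.16 (SE 0.12) and 0.48 (SE 0.41). Both lie farther from the pair, at 67751928 to 67933572 and 67745181 to 67749440. Gnrh1 did not exceed 0.211 RPKM and was at 0 in some libraries, so its data bound little. Around P2rx7 and P2rx4 on chromosome 5, Ift81, Atp2a2, Anapc7, Camkk2, Anapc5 and Rnf34 were likewise not called between genotypes in untreated cells. This too is near the background of 0.21%.

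None of the other 7 genes was called between genotypes by limma. The background was 0.21% of all genes in untreated cells, 0.0857% at oxLDL 10 and 0.125% at oxLDL 60, so that 0 of 7 is near the background. An unadjusted p under 0.05 was found for none of the 7 at any treatment. Of all genes it was found for 17.3% in untreated cells, 9.8% at oxLDL 10 and 7.9% at oxLDL 60. The lowest adjusted p among the 7 was 0.301, for P2ry6 in untreated cells (log2 difference 0.15, 95% interval -0.00341 to 0.31). Entpd1 had a log2 difference of -0.20 in untreated cells, with a wide interval from -0.67 to 0.28. Entpd6 was higher in every untreated DKO library (4.13 to 5.18 RPKM) than in every untreated Apoe-/- library (3.70 to 4.08 RPKM), with a log2 difference of 0.27 (SE 0.14, adjusted p = 0.321). In untreated cells the intervals were from -0.21 to 0.14 for P2rx7, from -0.20 to 0.18 for Entpd7, from -0.08 to 0.22 for Entpd5 and from -0.40 to 0.15 for P2rx4.

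The response to oxLDL was also compared between genotypes. No interaction of genotype with oxLDL 60 was called among the 7 genes (background 0.0156% of all genes), nor with oxLDL 10 (background 0%). An unadjusted p under 0.05 was found for none of them, beside 9.78% of all genes for oxLDL 60 and 1.92% for oxLDL 10. At oxLDL 60 the interaction was 0.06 for Entpd1 (95% interval -0.61 to 0.73), -0.10 for P2ry6 (-0.33 to 0.12) and -0.00152 for P2rx7 (-0.25 to 0.25). These intervals come from the main fit, which did not pair libraries by replicate number. The rise of Entpd5, past the adjusted p in Apoe-/- cells alone, had an interaction of -0.17 (-0.38 to 0.05, adjusted p = 0.565), so that a difference between genotypes was not shown. Rescaling by the median ratio moved the median interaction over all genes by 0.12.

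Marker genes of other cells stand beside these results. The summed level of 6 stromal markers (Col1a1, Col1a2, Col3a1, Pdgfra, Pdgfrb and Dcn, with Pdgfra below 0.1 RPKM throughout) ran from 0.62 to 15.1 RPKM in Apoe-/- and from 0.943 to 5.70 RPKM in DKO libraries. The sum of 8 neutrophil markers ran from 27.4 to 44.3 RPKM in Apoe-/- and from 30.4 to 75.6 RPKM in DKO libraries, mostly from S100a8 and S100a9. None of the markers in either list was called between genotypes. Their part in the level of Entpd4 and Entpd4b was not tested. Fewer cells of a type and less RNA per cell cannot be told apart in such bulk libraries.

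Other genes of nucleotide signalling showed larger changes at oxLDL 60, among them the ATP release channel and the adenosine receptors. The lists, which also cover glycoprotein folding and inflammasome genes, held 67 genes outside the set, 65 of them in the table and 53 tested. They were chosen with earlier results of these data known, so the shares called in them are descriptions. At oxLDL 60, 5 rose and 12 fell in Apoe-/- cells, and 3 rose and 12 fell in DKO cells. Of all genes, 7.13% were called higher and 6.78% lower in Apoe-/- cells, and 4.87% and 7.31% in DKO cells. The median log2 change over the 53 was -0.02 and -0.10, beside 0.06 and -0.06 over all genes.

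Among genes for release and uptake of nucleotides and nucleosides, Panx1 rose in both genotypes and Slc28a2 fell. Panx1, the ATP release channel gene, went from 6.18 ± 0.28 RPKM (SD, n = 3) untreated through 10.7 ± 0.34 at oxLDL 10 to 25.6 ± 1.28 at oxLDL 60 in Apoe-/- cells. In DKO cells it went from 6.71 ± 0.55 through 12.1 ± 1.09 to 24.9 ± 1.32 RPKM. The log2 changes at oxLDL 60 were 2.03 (SE 0.07, adjusted p = 2.21e-11) and 1.88 (SE 0.07, adjusted p = 6.6e-11). Slc17a9, the vesicular nucleotide transporter gene, was called in Apoe-/- cells (0.51, adjusted p = 0.00303), while in DKO cells its log2 change was 0.19 (adjusted p = 0.263). Slc28a2, a concentrative nucleoside transporter gene, fell by 1.05 and 1.00 on the log2 scale. In all, 2 of 8 tested genes of this list rose and 1 fell in Apoe-/- cells, and 1 rose and 1 fell in DKO cells. Over all genes, 7.13% rose and 6.78% fell in Apoe-/- cells, and 4.87% rose and 7.31% fell in DKO cells.

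Adenosine receptor genes fell in 3 of 3 tested cases in each genotype, beside 6.78% of all genes in Apoe-/- and 7.31% in DKO cells. Adora2b went from 5.46 ± 0.70 to 1.30 ± 0.18 RPKM in Apoe-/- and from 8.00 ± 0.71 to 1.69 ± 0.14 RPKM in DKO cells (log2 change -1.98 and -2.18, SE 0.13 in each). Adora2a had -1.90 and -1.43, at levels below 0.45 RPKM on average, and Adora3 had -0.88 and -0.81. At oxLDL 60 Adora2a did not exceed 0.05215 RPKM, so it passed the filter of 0.1 RPKM only through groups where it was higher. Its fall therefore adds little to the count of 3 of 3. That count is a description, since the list was chosen with earlier results of these data known. Adora2b and Adora3 stayed above 0.1 RPKM in every library. Adora1 was at 0 in 17 of 18 libraries.

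Among the other nucleotidases, 6 of 11 were tested, and 1 rose and 1 fell in each genotype at oxLDL 60. Over all genes, 7.13% rose and 6.78% fell in Apoe-/- cells, and 4.87% rose and 7.31% fell in DKO cells. Enpp1, which splits ATP into AMP and pyrophosphate, had a log2 change of 0.55 in Apoe-/- and 0.52 in DKO cells. Nt5e (CD73) had -0.71 in Apoe-/- and -1.14 in DKO cells, ending at 0.62 ± 0.15 and 0.74 ± 0.04 RPKM. Of this list 2 genes were called between genotypes in untreated cells, named here after their values were seen. Nt5e was higher in DKO cells (1.76 against 1.07 RPKM, log2 difference 0.66, adjusted p = 0.0453). Cd38, an NAD glycohydrolase gene, was lower (0.29 against 0.80 RPKM, log2 difference -1.15, adjusted p = 0.0458). Both adjusted p lay close to the limit of 0.05. These are 2 of 6 tested genes, beside 0.21% of all genes. Over all lists together 1 of 53 tested genes was called higher and 1 lower, so no other list held a call. The list was picked out because both calls fell in it, so its share is not a result about the list. Neither was called with oxLDL. Nt5e had log2 differences of 0.47 (adjusted p = 0.347) at oxLDL 10 and 0.23 (adjusted p = 0.697) at oxLDL 60, and Cd38 had -0.55 (adjusted p = 0.493) and -0.41 (adjusted p = 0.696).

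Of the other P2Y receptor genes, 6 of 8 were tested, and 1 rose and 2 fell in Apoe-/- cells while 1 fell in DKO cells. Over all genes, 13.9% were called in Apoe-/- (7.13% higher, 6.78% lower) and 12.2% in DKO cells (4.87% higher, 7.31% lower). P2ry2, a receptor for ATP and UTP, had log2 changes of 0.58 and 0.46, the second under the fold limit with an adjusted p of 0.0361. P2ry13, a receptor for ADP, had -1.12 and -0.82, both called, and P2ry14, a receptor for UDP-glucose, had -0.90 (called) and -0.76 (adjusted p = 0.0525). None of 3 tested P2X genes outside the set was called, the most abundant being P2rx6 with log2 changes of 0.45 and 0.54.

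Inside the cell, Ampd3, an AMP deaminase gene, rose from 8.99 ± 1.30 to 23.9 ± 0.24 RPKM in Apoe-/- and from 8.90 ± 1.59 to 24.9 ± 2.65 RPKM in DKO cells. Pnp, the purine nucleoside phosphorylase gene, fell from 93.9 to 47.7 RPKM and from 87.9 to 44.8 RPKM. No other of the 11 purine handling genes was called at oxLDL 60. A count of 2 of 11 is near the background of 13.9% in Apoe-/- and 12.2% in DKO cells. None of 8 genes for UDP-glucose dependent glycoprotein folding, the process that Entpd5 serves, was called. Calr, the most abundant of them, had log2 changes of 0.06 and -0.10.

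Inflammasome genes fell in 4 of 8 cases in Apoe-/- and 5 of 8 in DKO cells, beside 6.78% and 7.31% of all genes. None rose, beside 7.13% and 4.87% of all genes. These counts are a description, since the list was chosen with earlier results of these data known. A link of these falls to P2rx7 was not tested. Nlrp3 went from 23.6 to 9.15 RPKM in Apoe-/- and from 24.4 to 9.81 RPKM in DKO cells (log2 change -1.35 and -1.30). Il1b, the interleukin-1 beta gene, went from 6.26 ± 2.19 to 0.36 ± 0.20 RPKM and from 6.58 ± 3.23 to 0.32 ± 0.17 RPKM. Casp4 had -1.27 and -1.10, and Il18 had -0.52 and -0.64. Gsdmd had -0.48 and -0.54, with only the second called.

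**Figure D5:**
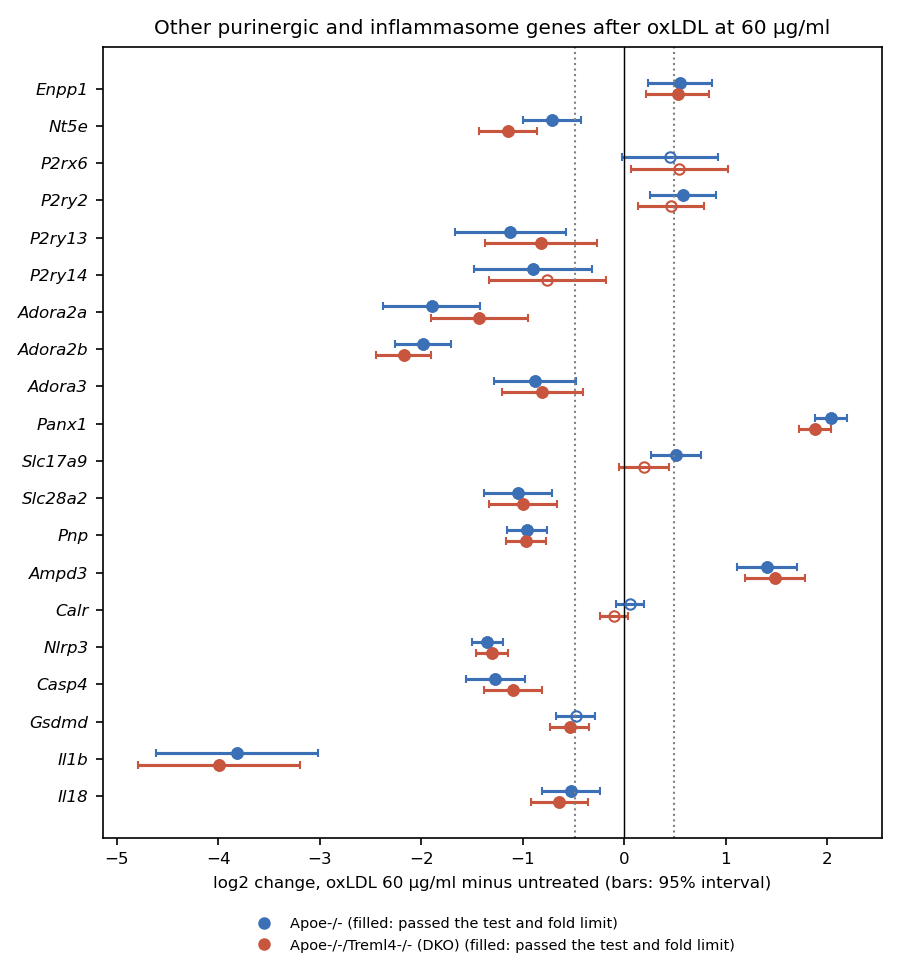
Log2 change from untreated to oxLDL 60, with 95% intervals from limma, of 20 genes from the pathway lists in both genotypes, with dotted lines at a fold of 1.4. Panx1 and Ampd3 had the largest rises, and Il1b, Adora2b and Adora2a the largest falls. Adora2a lay below the filter limit of 0.1 RPKM in every oxLDL 60 library.

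Some members share their place in the genome with other genes. In RefSeq (GRCm38.p6) the span of P2rx4 overlaps that of Camkk2, Entpd5 overlaps Bbof1 and Entpd7 overlaps Cox15, and how reads in such overlaps were assigned is not given in the sources used here. Camkk2, which fell at oxLDL 60 in both genotypes (log2 change -0.84 and -0.86), lies beside P2rx4 with log2 changes of -0.04 and -0.08.

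Over the 18 libraries, the genes most like each member were found by Pearson's r of log2(RPKM + 0.1) among genes with a mean of at least 1 RPKM. Treatment, genotype and animal are shared by these points, so the values are a description. Entpd1 was followed most closely by Cd200r4 (r = 0.948), Pla2g7 (0.947) and Fcgr3 (0.944), and P2ry6 by Ehbp1l1 (0.957), Galnt7 (0.952) and St3gal4 (0.95). P2rx7 was nearest to Tgfbr1 (0.957), Fcgr1 (0.955) and Zc3h12d (0.94), and P2rx4 to Trf (0.926), Cdk2ap2 (0.909) and Clec7a (0.906). The nearest genes of the pair included the deleted one. Entpd4 was nearest to Entpd4b (0.982), Treml4 (0.97) and Ubr2 (0.882), and Entpd4b to Entpd4, Treml4 (0.965) and Hp1bp3 (0.879). The genotype difference by which the pair was selected enters these r values. Entpd5 was nearest to Mff (0.942), Cdc16 (0.926) and Ostm1 (0.919), Entpd6 to Senp3 (0.953), Ipo9 (0.937) and Rars2 (0.935), and Entpd7 to Plxnb2 (0.954), Cd300e (0.926) and Elavl1 (0.903). Within the set, P2rx7 and P2ry6 had r = 0.764, and Entpd1 and Entpd7 had r = -0.754.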

How the data were processed

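RNA of BMDM was sequenced in 18 libraries. The submitters' processing notes name STAR and mm10, and the authors deposited 1 table of RPKM values for 18668 gene symbols, of which 24 had been turned into dates. The annotation and the handling of reads with several matches are not given in the sources used here. A treatment label mentions LPS, the exposure time differs between sources, and platforms and read lengths differ, and none of this was resolved.

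Values were analysed as log2(RPKM + 0.1), which understates the fold of low genes. A mean for each of 6 groups was fitted in limma 3.58.1 (R 4.3.3, eBayes with trend) to the 12838 genes that reached 0.1 RPKM in 3 or more libraries. Benjamini-Hochberg adjustment was over all of them within a comparison, and intervals are 95% limma intervals. The fit was tested on simulated data. Alternatives were pseudocounts of 1 and 0.01, no filter or a filter of 1 RPKM, median ratio scaling, a replicate block, a fit of only the groups compared, a term for or removal of libraries with Xist transcripts, no trend, no fold limit, and removal of each library.

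Same-numbered libraries of a genotype deviated together from their group means (18 pairs, r from 0.183 to 0.695, against a median of -0.347 for other numbers), so numbers pair libraries within a genotype. Between genotypes the median was -0.168. Depth came from 1413 genes whose low values are a few reads and is approximate.

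The members, gene lists and tests were chosen with earlier results of these data known. The genes named are the members, the checks of genotype and animal, pathway genes called at oxLDL 60 (or the most abundant of a list with none), the 3 genes most like each member, and the 3 tested neighbours on each side of Entpd4 with Entpd4b and of P2rx4 with P2rx7. As a check of the animals, 4 Y-linked genes (Ddx3y, Eif2s3y, Kdm5d and Uty) summed to at most 0.0515 RPKM in libraries with Xist transcripts and to 41.8 to 63.4 RPKM in the others. Marker lists of macrophages and of B, T, dendritic, mast, megakaryocyte and erythroid, and endothelial cells had no gene called between genotypes. At oxLDL 60 against untreated, 1 B cell marker was called in DKO cells besides the macrophage markers. Their summed levels were 5560 to 11964, 1.19 to 2.42, 0.331 to 0.798, 0.106 to 0.378, 0.0503 to 0.332, 126.5 to 196.6 (nearly all Pf4) and 2.44 to 4.44 RPKM. Python 3.11.15, pandas 2.3.3, SciPy 1.17.1 and matplotlib 3.10.9 served for the rest.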

Additional observations from a re-analysis of the deposited data

How the results depend on the processing

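The number of the 9 genes called was recomputed under each alternative. In the 2 comparisons with any call, 8 of 34 recomputed counts moved by over 1.5 times. In the 9 comparisons with a count of 0, 3 of 165 were above 0. With no limit on the fold change, 4 genes passed at oxLDL 60 against untreated in Apoe-/- cells and 4 in DKO cells, and 1 and 3 passed at oxLDL 60 against oxLDL 10. Rescaling by the median ratio gave 2 calls in Apoe-/- and 1 in DKO cells at oxLDL 60 against untreated. With the replicate block the count at oxLDL 60 against oxLDL 10 in Apoe-/- cells was 1, and the block moved no other count by over 1.5 times. Leaving out 1 library at a time gave 0 to 1 calls in Apoe-/- and 1 to 2 calls in DKO cells at oxLDL 60 against untreated. The counts fell to 0 without untreated replicate 1 or oxLDL 60 replicate 2 of Apoe-/-, and to 1 without untreated replicate 2 or 3 of DKO. The genotype difference of Entpd4 and Entpd4b stayed between -0.83 and -0.46 on the log2 scale in all 78 recomputed values. A pseudocount of 1 moved it past the spread between replicates, to -0.46, -0.46 and -0.50 for Entpd4 and -0.60, -0.58 and -0.54 for Entpd4b in untreated, oxLDL 10 and oxLDL 60 cells, since a larger pseudocount shrinks changes of low genes. None of the 12 changes that passed the adjusted p turned direction in any of 204 recomputed values. For 76 changes that did not pass, 102 of 1376 recomputed values had the other sign. The lowest limma adjusted p among these 1376 values was 0.00301. At least 1 of these changes therefore passed the adjusted p, though not the fold limit, under an alternative. For Entpd1 the log2 change at oxLDL 60 ran from 0.56 to 0.91 in Apoe-/- cells (adjusted p from 1.12e-05 to 0.092) and from 0.65 to 1.01 in DKO cells (adjusted p from 5.37e-06 to 0.063). Depth per library was only estimated. The p-values rest on the spread within groups of 3 libraries, pooled by limma over all 6 groups, and not on the spread of the compared groups alone.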
